A study of Mus musculus with 39 samples.

Results

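This comparison asks which liver responses to perfluorooctanoic acid (PFOA) differ between mice with and without the nuclear receptor PPARα. The measure was the genotype difference, that is the change from 0 to 3 mg/kg PFOA in PPARα-null mice minus the same change in wild-type mice. It was taken on 16 of the 39 liver arrays of the series, 4 in each of 4 groups: wild type with water, wild type with PFOA, null with water and null with PFOA. All mice were adult males of the 129SV background, and each group held 4 animals. PFOA, as its ammonium salt, was given by gavage in deionised water once a day for 7 days, and the control animals received the water alone. A separate set of 15 arrays from the same 2 genotypes, with 50 mg/kg pirinixic acid (named in the labels and plots by its Wyeth code) or its vehicle of 0.5% methylcellulose, shares no array with the PFOA comparison and is set beside it at the end; it holds 3 arrays of wild type with methylcellulose and 4 of each other group. The labels do not state which part of Ppara the null allele lacks.

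Of 28893 probes with a value on all 16 arrays, 145 (0.502%) had a called genotype difference, a call being a limma adjusted p under 0.05, two-sided; 120 (0.415%) were lower and 25 (0.0865%) higher in null. Over the same probes, 3.33% were called for the PFOA change in wild type and 0.18% in null. Changes were sorted by the calls in each genotype and in the difference. The receptor-dependent class holds 133 probes (0.46%) that were called in wild type and whose genotype difference had the opposite sign; 118 of them rose and 15 fell in wild type. They name 87 genes, and in null mice 66 of the 133 changed in the wild-type direction, mostly without a call. The shared class holds 17 probes (0.0588%), all higher after PFOA in both genotypes with no called difference. The null-only class holds 7 probes (0.0242%), all higher in null mice alone, and 1 further probe rose in both genotypes and more in null. No probe was called in opposite directions in the 2 genotypes, and 4 were called in the difference without a call in either genotype.

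PPARα is a fatty-acid-sensing transcription factor of hepatocytes. On binding fatty acids or synthetic activators it pairs with the retinoid X receptor and switches on genes for fatty acid uptake, activation and oxidation in peroxisomes, mitochondria and the endoplasmic reticulum. PFOA is a fully fluorinated fatty acid analogue that activates PPARα, and pirinixic acid is a synthetic activator of the same receptor. The constitutive androstane receptor (CAR) and the pregnane X receptor (PXR) are a separate pair of liver receptors that respond to foreign compounds and switch on cytochrome P450 genes of the Cyp2b, Cyp2c and Cyp3a families.

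The log2 signals ran from 4.85 to 21.5, with the same median of 9.14 on every array, and arrays of 1 group correlated at 0.925 to 0.97 over 24 pairs. Hepatocyte markers were the highest of the cell type lists, with list means of 19.6 to 20.3 on the 16 arrays. Ppara itself read 15.6 to 16.8 in wild type with water, 16.5 to 16.7 with PFOA, 15 to 15.3 in null with water and 15 to 16 with PFOA, so its probe retains signal in null mice and does not check the labels. Cox6b2, a testis-type subunit of cytochrome c oxidase, read 13.3 to 17.6 on the 8 wild-type arrays and 7.61 to 8.96 on the 8 null arrays. An earlier look at these data had picked it for separating the genotypes, so it is no independent check of the labels. It was itself receptor-dependent (difference -3.62 ± 0.41, limma adjusted p = 0.000619). The arrays fell into a pair of sets that no label records, 9 and 7 of the 16, with both sets in every group. The mean signal of 583 probes for genes silent in liver, such as odorant receptors, was 8.8 to 9.08 in wild type with water, 8.68 to 9.04 with PFOA, 8.73 to 8.8 in null with water and 8.73 to 9.01 with PFOA. Its own genotype difference was 0.28 (exact permutation of treatment within genotype, two-sided p = 0.0457 over 4900 arrangements). With that mean as a covariate the receptor-dependent count was 85 and the difference kept its sign at all 133 probes, which were chosen on these same arrays. With the array set as a block the count was 150. The files hold no detection call, so where a group's mean lay below its silent-gene mean, a fold from it is given as at least N-fold, with each array counted at the higher of its own value and its silent-gene mean. Both null means of Cox6b2 lay below the silent-gene means, so the size of its difference is uncertain.

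**Figure D1:**
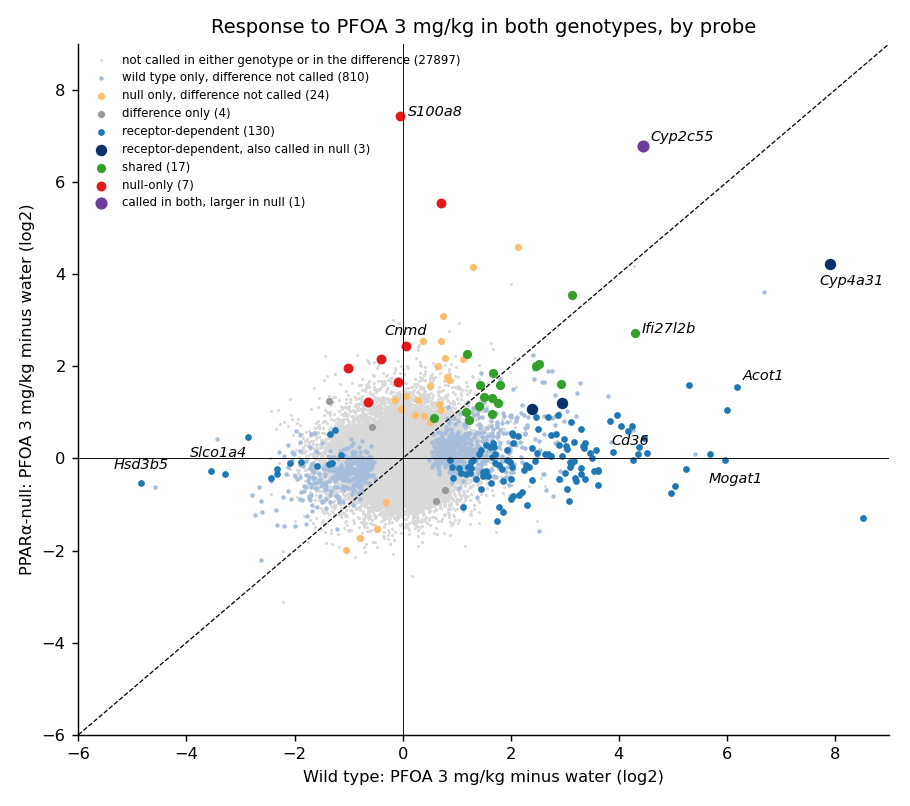
Each point is 1 of 28893 probes; the x axis is the change from water to PFOA 3 mg/kg in wild-type mice and the y axis the same change in PPARα-null mice, both in log2, coloured by class with the number of probes. The classes are defined by calls on these values. Receptor-dependent probes lie mostly near the horizontal axis, with Cyp4a31 well above it. Shared probes lie on both sides of the dashed line of equal response, some well off it (Ifi27l2b 4.30 in wild type and 2.73 in null). S100a8, Cnmd and Cyp2c55 lie above that line.

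Of the named receptor-dependent genes, those of fatty acid and glycerolipid metabolism are given first. Mogat1, which makes diacylglycerol from monoacylglycerol, read 7.28, 8.44, 8.94 and 9.9 in wild type with water and 14.4, 14.4, 14.8 and 14.9 with PFOA. In null mice it read 8.52, 8.25, 7 and 8.06 with water and 7.04, 6.45, 9.84 and 8.36 with PFOA. The treated wild-type arrays all stood above the other 12 arrays, and the null groups overlapped. Over all probes, the PFOA arrays lay wholly apart from the water arrays at 9.32% in wild type and at 5.5% in null. Genes named as the largest of their class had to show such a gap where they were called, so for them it tests nothing. The change was log2 5.96 ± 0.65 (SE) in wild type, at least 42-fold since the wild-type water mean lay below that of silent genes, and -0.04 ± 0.65 in null, a genotype difference of -6.0 ± 0.92 (limma adjusted p = 0.00597). Both null means also lay below those of silent genes, so the null change and the size of the difference are uncertain.

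Uptake and activation of fatty acids came next. Cd36, the fatty acid translocase of the plasma membrane, had the most precise difference of the leading genes. It read 12.5, 12.4, 12.6 and 12.4 in wild type with water against 17.3, 16.3, 16.9 and 16.9 with PFOA, and 12.9, 12.8, 12.7 and 13 in null with water against 13.2, 13.1, 12.8 and 12.7 with PFOA. The null groups overlapped, and the rise in wild type was 20.6-fold. The genotype difference was -4.27 ± 0.28 (limma adjusted p = 8.11e-06). Slc27a1, a fatty acid transport protein named here after its values were seen, changed by 3.04 ± 0.36 in wild type and -0.65 ± 0.36 in null (difference -3.69 ± 0.51, limma adjusted p = 0.00244).

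The acyl-CoA thioesterases, which release fatty acids from coenzyme A, gave 3 receptor-dependent genes. Acot3, a peroxisomal member, read 8.8 to 11.3 in wild type with water and 14.8 to 15.8 with PFOA, against 11.1 to 13.3 and 10.8 to 12.1 in null. Acot1, the cytosolic member, rose 73.1-fold in wild type, from 12.2 to 13.9 up to 18.9 to 19.2. In null mice it read 14.4, 15.7, 15.3 and 15.4 with water and 16.4, 17, 16.9 and 16.6 with PFOA, so the treated null arrays also stood above their controls, by 1.56 ± 0.36, without a call (limma adjusted p = 0.16). Acot8, a second peroxisomal thioesterase, changed by 1.93 ± 0.17 in wild type and by -0.02 ± 0.17 in null. Peroxisomal Acot3 differed between genotypes by -5.64 ± 0.78 (limma adjusted p = 0.00246) and Acot1 by -4.63 ± 0.51 (limma adjusted p = 0.00059).

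In the peroxisome, Ehhadh, the bifunctional enzyme of peroxisomal beta-oxidation, read 15.7, 15.9, 16.4 and 16.3 in wild type with water and 20.6, 20.3, 20.5 and 20.8 with PFOA, a 22.1-fold rise. Its null arrays overlapped, at 16.1, 15.9, 16.1 and 16.6 with water and 17.1, 16.9, 15.8 and 16.7 with PFOA. The genotype difference was -4.01 ± 0.37 (limma adjusted p = 0.000115). Pex11a, a membrane protein of peroxisome division, changed by 2.75 ± 0.20 in wild type and 0.06 ± 0.20 in null. Decr2, the peroxisomal dienoyl-CoA reductase, changed by 1.70 ± 0.17 and -0.09 ± 0.17, and Acaa1a, a peroxisomal thiolase, by 1.55 ± 0.16 and 0.28 ± 0.16. Crat, carnitine acetyltransferase, which exports acetyl groups, changed by 2.98 ± 0.25 and 0.41 ± 0.25. Acaa1a and Crat were named after their values were seen, and the difference in Acaa1a (limma adjusted p = 0.018) lost its call on leaving out any of 3 arrays.

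Enzymes of the mitochondrion and their regulator Pdk4 were next. Decr1, the mitochondrial dienoyl-CoA reductase, changed by 2.13 ± 0.17 in wild type and by 0.50 ± 0.17 in null, a genotype difference of -1.63 ± 0.24 (limma adjusted p = 0.00468). Hadhb, the beta subunit of the mitochondrial trifunctional protein, changed by 1.42 ± 0.15 and 0.10 ± 0.15, and its second probe was receptor-dependent too. The alpha subunit, Hadha, changed by 1.56 ± 0.24 and 0.00 ± 0.24, a difference of -1.56 ± 0.34 that missed the call (limma adjusted p = 0.0701). Pdk4, the kinase that turns off pyruvate dehydrogenase when fat is the fuel, read 10.3, 10.8, 13.1 and 11.8 in wild type with water and 15.6, 15.9, 17.5 and 16.8 with PFOA. It was already higher in null mice with water, at 13.9, 14.2, 14.4 and 13.1, and read 13.4, 13.6, 14 and 11.5 with PFOA. The treated wild-type arrays exceeded all others, and the difference was -5.72 ± 0.91 (limma adjusted p = 0.00709). It was not called with the silent-gene mean as a covariate.

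Lipid storage and secreted lipid proteins were also in the class. Plin2, the main coat protein of hepatocyte lipid droplets, read 14.5 to 14.7 in wild type with water and 17.2 to 17.8 with PFOA, against 13.9 to 14.7 and 14.5 to 15.2 in null (difference -2.23 ± 0.30, limma adjusted p = 0.00218). Cidec, which fuses lipid droplets, changed by 3.29 ± 0.38 and -0.35 ± 0.38, a difference that was not called with the silent-gene covariate. The Cidec means of wild type with water and of null with PFOA lay below those of silent genes. G0s2, an inhibitor of triglyceride lipase, changed by 2.89 ± 0.38 and 0.29 ± 0.38, and Mgll, monoglyceride lipase, by 2.04 ± 0.24 and 0.34 ± 0.24; these 3 were named after their values were seen. The differences in G0s2 (limma adjusted p = 0.0462) and Mgll (limma adjusted p = 0.0359) were close to the threshold and lost their call in 14 and 13 of the 16 fits with 1 array left out. Pltp, the phospholipid transfer protein of plasma lipoproteins, rose 12.2-fold in wild type and changed by -0.26 ± 0.22 in null (difference -3.88 ± 0.32, limma adjusted p = 4.16e-05).

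Fgf21, a fasting hormone secreted by liver, read 10.9, 10.1, 10.2 and 11 in wild type with water and 13.4, 13, 14.6 and 12.7 with PFOA. In null mice it was lower from the start, at 8.15, 8.42, 7.98 and 8.25 with water, and 7.37, 8.19, 7.44 and 7.99 with PFOA. The 4 groups thus formed 3 levels, treated wild type above untreated wild type above both null groups. The genotype difference was -3.35 ± 0.52 (limma adjusted p = 0.00659), and it was not called with the silent-gene covariate; both null means lay below that of silent genes. Vnn1, pantetheinase, showed the same order, with 10.8 to 10.9 and 16 to 16.3 in wild type against 6.96 to 10.1 and 6.94 to 8.9 in null. Both null means of Vnn1 also lay below those of silent genes.

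Other leading receptor-dependent genes fell outside the groups above. Hes7, a repressor of the vertebrate segmentation clock, read 9.58 to 11 in wild type with water and 15.7 to 16.5 with PFOA, a 51.7-fold rise, while the null groups overlapped at 9.8 to 10.8 and 9.59 to 11.8 (difference -5.60 ± 0.60, limma adjusted p = 0.000502). Krt23, an epithelial keratin that is also a bile duct marker, rose 63.8-fold in wild type and changed by 1.05 ± 0.44 in null. The other 5 measured bile duct markers had a mean signal of 8.93 to 9.38 in wild type with water and 8.73 to 9.33 with PFOA. Serinc2 and Pnliprp1, a serine incorporator and a pancreatic lipase-related protein, rose 20.8-fold and, from a level below that of silent genes, at least 4.41-fold in wild type and changed by 0.25 ± 0.29 and 0.12 ± 0.37 in null. For both genes the null means lay below those of silent genes. The 8 measured markers of pancreatic acinar cells had a mean signal of 7.69 to 8.62 over the 16 arrays, and none was called in either genotype.

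**Figure D2:**
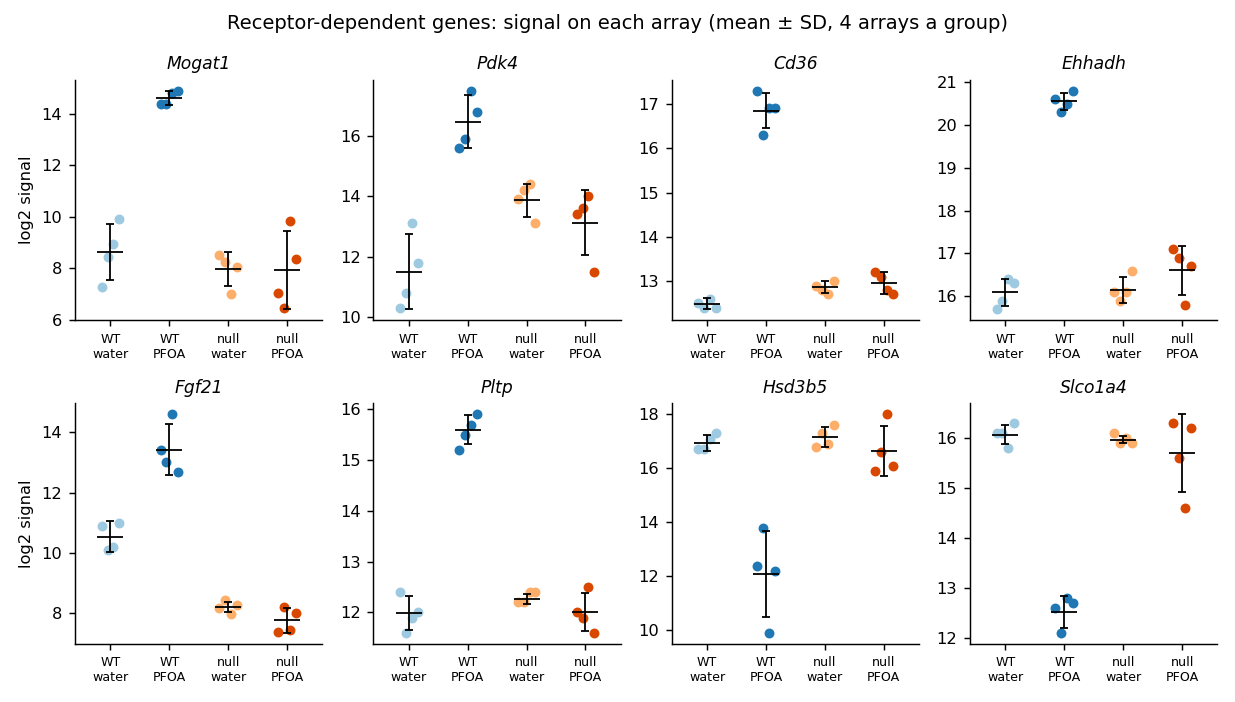
The log2 signal of 8 receptor-dependent genes on each of the 16 arrays, by genotype (WT, wild type) and treatment; points are arrays and the bar and whiskers are the mean and SD of 4 arrays. In the 6 genes that rose, the treated wild-type arrays stand above every other array; Hsd3b5 and Slco1a4 fell in wild type alone.

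The starts of 2 of the leading receptor-dependent genes and of 2 genes that rose more in null mice are printed so that their promoters can be read beside these values. They come from RefSeq on build GRCm38.p6, run 5′ to 3′ on the gene's own strand, and hold 250 bases before the start of transcription and 50 after it. Capitals mark the half-site AGGTCA, the unit that PPARα and CAR recognise as spaced repeats, searched on both strands. A match is a description of the letters and not a site of binding.
Mogat1, chr1:78510810-78511109, plus strand: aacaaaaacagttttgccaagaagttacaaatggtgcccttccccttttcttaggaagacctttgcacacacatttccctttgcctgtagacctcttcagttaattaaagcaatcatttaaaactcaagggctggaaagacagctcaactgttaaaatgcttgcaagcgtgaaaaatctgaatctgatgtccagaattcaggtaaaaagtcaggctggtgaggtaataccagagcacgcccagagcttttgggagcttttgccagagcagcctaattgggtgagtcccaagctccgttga
Acot3, chr12:84051894-84052193, plus strand: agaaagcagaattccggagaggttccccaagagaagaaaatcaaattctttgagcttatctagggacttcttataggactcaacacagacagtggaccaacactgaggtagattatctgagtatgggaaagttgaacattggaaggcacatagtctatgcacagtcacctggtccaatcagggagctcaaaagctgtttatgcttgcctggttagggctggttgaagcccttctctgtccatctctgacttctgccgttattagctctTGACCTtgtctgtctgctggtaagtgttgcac
Ces2a, chr8:104733753-104734052, plus strand: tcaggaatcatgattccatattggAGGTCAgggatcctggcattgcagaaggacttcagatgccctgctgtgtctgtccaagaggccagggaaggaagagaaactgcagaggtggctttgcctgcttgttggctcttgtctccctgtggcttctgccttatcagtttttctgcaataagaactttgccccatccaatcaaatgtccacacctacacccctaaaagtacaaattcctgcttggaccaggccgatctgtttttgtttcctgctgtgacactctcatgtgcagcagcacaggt
Cyp2c55, chr19:39006769-39007068, plus strand: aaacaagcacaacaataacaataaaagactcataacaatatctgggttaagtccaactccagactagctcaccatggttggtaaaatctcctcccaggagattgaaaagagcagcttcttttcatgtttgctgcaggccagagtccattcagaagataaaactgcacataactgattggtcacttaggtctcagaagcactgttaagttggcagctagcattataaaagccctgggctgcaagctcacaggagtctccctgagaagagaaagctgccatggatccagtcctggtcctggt

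Acot3 and Ces2a held 1 half-site each, on opposite strands, and Mogat1 and Cyp2c55 held none. Promoters were found for 61 receptor-dependent genes that rose, and 8 (13.1%) held the half-site, against 16.3% of 32851 promoters in the table and 16% of the 10256 tested genes with an entry. An exact direct repeat spaced by 1 base, AGGTCANAGGTCA, stood in none of the 61 and in 0.0396% of all promoters. The repeat spaced by 4 bases, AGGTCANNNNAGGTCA, stood in none of the 61 and in 0.0152% of all.

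Among the 15 receptor-dependent probes that fell in wild type were a steroid enzyme, a transporter and 2 cytochrome P450 genes. Hsd3b5, a male-specific liver steroid dehydrogenase, read 16.7, 16.7, 17.1 and 17.3 in wild type with water and 12.4, 13.8, 9.91 and 12.2 with PFOA. In null mice it read 16.8, 17.3, 16.9 and 17.6 with water and 15.9, 16.6, 18 and 16.1 with PFOA, and the null groups overlapped. Its change was -4.85 ± 0.63 in wild type and -0.54 ± 0.63 in null. The genotype difference of 4.32 ± 0.89 was close to the threshold (limma adjusted p = 0.0482) and lost its call when any of most single arrays was left out.

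Slco1a4, an uptake transporter for bile salts and other organic anions, kept its call in each of the 16 fits with 1 array left out, but not in the fit of all 39 arrays or of 38. It read 16.1, 16.1, 15.8 and 16.3 in wild type with water and 12.6, 12.1, 12.8 and 12.7 with PFOA, an 11.7-fold fall. Its null arrays read 16.1, 15.9, 16 and 15.9 with water and 16.3, 15.6, 14.6 and 16.2 with PFOA, so 1 treated null array lay low and the groups overlapped. The difference was 3.27 ± 0.43 (limma adjusted p = 0.00178).

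Cyp4f14, a leukotriene and fatty acid omega-hydroxylase, fell by 2.32 ± 0.17 in wild type, the opposite direction to the Cyp4a member described below. Its change in null was -0.33 ± 0.17 and its difference 1.99 ± 0.24 (limma adjusted p = 0.000926). Cyp2c70, which makes muricholic acids, changed by -2.08 ± 0.19 and -0.11 ± 0.19. Ifitm3, an interferon-induced membrane protein, read 18.7 to 18.9 in wild type with water and 16.2 to 16.6 with PFOA, and 18.9 to 19.5 and 18.6 to 18.8 in null. Its null arrays therefore did not overlap either, with a change of -0.42 ± 0.16 that was not called (limma adjusted p = 0.55).

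The remaining named falls ran from -2.32 to -1.30. Gpld1, which cleaves lipid anchors from proteins, changed by -1.36 ± 0.16 in wild type and -0.12 ± 0.16 in null. C8b, a chain of the complement membrane attack complex, changed by -1.58 ± 0.20 and -0.17 ± 0.20, with a difference of 1.41 ± 0.29 (limma adjusted p = 0.0462). Sdc4, a cell-surface heparan sulfate proteoglycan, changed by -1.30 ± 0.17 and -0.10 ± 0.17 (difference adjusted p by limma = 0.0359), Lrtm1 by -2.32 ± 0.30 and -0.22 ± 0.30 (0.0391) and Gna14, a G protein subunit, by -1.35 ± 0.27 and 0.54 ± 0.27 (0.0417). Like Hsd3b5, the difference in C8b, Sdc4, Lrtm1 and Gna14 fell short of a call on leaving out most of the arrays in turn.

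Within the receptor-dependent class, 130 probes were not called in null mice and 3 were called there too, with a smaller measured rise. The median change over all 133 was 2.39 in wild type and -0.07 in null; since the class is chosen from these calls, the medians describe it and test nothing. Cyp4a31, a fatty acid omega-hydroxylase of the Cyp4a cluster, had the largest rise of any named gene in wild type. It read 9.65, 8.89, 10.3 and 10.4 with water and 18.1, 17.5, 17.7 and 17.6 with PFOA in wild type, and 7.27, 7.92, 7.05 and 8.8 against 12, 12.4, 12.1 and 11.4 in null. Neither genotype's groups overlapped, and the treated null arrays still lay above the untreated wild-type ones. The rise was 240-fold in wild type and at least 9.26-fold in null, where the water mean lay below that of silent genes. The measured difference was -3.69 ± 0.56 (limma adjusted p = 0.00484), and its size is uncertain because the null rise has only this bound. The Cyp4a genes lie in a cluster of near copies, so part of this signal may belong to a neighbour.

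Aldh3a2, which oxidises fatty aldehydes, and Ech1, a dienoyl-CoA isomerase of peroxisomes and mitochondria, were the other two. Aldh3a2 rose 7.72-fold in wild type and 2.3-fold in null, with null arrays of 13.1 to 13.8 and 14.6 to 14.8. Ech1 rose 5.23-fold and 2.1-fold, with null arrays of 14.3 to 14.9 and 15.4 to 15.9. The difference was -1.75 ± 0.24 for Aldh3a2 (limma adjusted p = 0.00266) and -1.32 ± 0.26 for Ech1 (limma adjusted p = 0.0326), the latter lost on leaving out most single arrays. Cyp4a31, Aldh3a2 and Ech1 were named as the whole of this small class.

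The shared responses are given with the fatty acid oxidation genes first. Of the 17 probes, 13 carried the symbol of 1 gene. A missed call of the difference does not show equal responses: for 8 of the 17 the 95% interval of the difference lay within log2 1 of 0. Acaa1b, a peroxisomal thiolase and close relative of Acaa1a, read 19.6, 19.6, 19.6 and 19.8 in wild type with water and 20.9, 21.1, 21.4 and 20.8 with PFOA. In null mice it started lower, at 18.4, 19.3, 18.7 and 18.9, and read 20.5, 20.7, 20.4 and 20.1 with PFOA. It rose by 1.43 ± 0.21 in wild type and 1.60 ± 0.21 in null, a difference of 0.17 ± 0.30, and neither pair of groups overlapped. The shared genes named were chosen from those without overlap, so this is no separate support.

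Acadl, the mitochondrial long-chain acyl-CoA dehydrogenase, rose by 1.51 ± 0.18 in wild type and 1.32 ± 0.18 in null, from different baselines. Its wild-type arrays went from 16.6 to 17.1 up to 18.3 to 18.6, and its null arrays from 15.5 to 16 up to 16.7 to 17.2. Treated null mice thus reached the level of untreated wild-type mice. Eci2, the peroxisomal enoyl-CoA isomerase, had the same form: 16 to 16.6 and 17.9 to 18.4 in wild type, 14.9 to 15.1 and 15.9 to 16.1 in null. Its rise was 3.15-fold in wild type and 1.95-fold in null (difference -0.69 ± 0.23, limma adjusted p = 0.346).

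Outside lipid oxidation, Ifi27l2b, an interferon-inducible protein, had the largest shared response. It read 10.1, 9.59, 10.3 and 10.4 in wild type with water and 14.4, 13.8, 14.9 and 14.5 with PFOA, and in null 10.9, 11.3, 10.7 and 11 with water and 13.6, 13.6, 14.3 and 13.2 with PFOA. The rise was 19.7-fold in wild type and 6.61-fold in null, with a difference of -1.58 ± 0.39 that was not called (limma adjusted p = 0.119). Ces1g, a carboxylesterase, went the other way, with 2.29-fold in wild type and 4.85-fold in null. Gstm4, a glutathione transferase, rose 3.13-fold and 2.48-fold, and Entpd5, a nucleotidase of the endoplasmic reticulum, 2.24-fold and 2.03-fold. Cdc20, an activator of the anaphase-promoting complex, rose at least 4.41-fold in wild type, from a level below that of silent genes, and 4.01-fold in null. Csrp3, a muscle LIM protein, rose 3.38-fold and 2.32-fold. Gnat2, a cone transducin subunit, rose 7.62-fold and 3.07-fold by its brighter probe, but its second probe was called in neither genotype.

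Only in null mice did S100a8, a calcium-binding protein abundant in neutrophils, rise. It read 8.82, 9.17, 8.7 and 7.83 in wild type with water, 9.15, 7.5, 8.78 and 8.92 with PFOA, and 8.73, 8.16, 8.22 and 7.34 in null with water. In null with PFOA it read 15.4, 15.4, 16.5 and 14.9, far above the other 12 arrays, none of which passed 9.17. All 3 of these groups had means below that of silent genes. The change was 7.44 ± 0.44 in null (at least 110-fold) and -0.04 ± 0.44 in wild type, a difference of 7.48 ± 0.62 (limma adjusted p = 4.16e-05). At 1 mg/kg, null arrays read 7.7 to 9.96; these mice share their water controls with the higher dose.

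The other neutrophil markers did not move with S100a8. S100a9, which encodes its usual partner, read 10.2 to 11 in null with water and 10.4 to 10.5 with PFOA. The mean of the 8 measured neutrophil markers other than S100a8 was 9.96 to 10.4 in null with water and 9.66 to 10.6 with PFOA, and none of the 8 was called.

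Cnmd, chondromodulin, an inhibitor of vessel growth in cartilage, rose in null mice from a lower baseline. It read 14.3, 14.3, 14.2 and 14.2 in wild type with water and 14.4, 14.8, 14.1 and 13.9 with PFOA, against 13.1, 12.6, 12.5 and 12.6 in null with water and 15, 15, 15.1 and 15.5 with PFOA. PFOA thus took null mice from below to above both wild-type groups. The difference was 2.38 ± 0.29 (limma adjusted p = 0.000926), and at 1 mg/kg null arrays read 14 to 14.9.

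Ces2a, a liver carboxylesterase known as a CAR and PXR target, read 17.9 to 18.1 and 17.7 to 18 in wild type. In null mice it went from 17.5, 17.7, 17.8 and 17.5 to 19.3, 19.2, 19.4 and 19.2, a 3.17-fold rise, with 18.3 to 18.6 at 1 mg/kg. The genotype difference was 1.74 ± 0.20 (limma adjusted p = 0.000882). The other 4 null-only probes have no single gene symbol; their changes in null ran from 1.23 to 5.55.

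Cyp2c55, a cytochrome P450 that CAR and PXR induce, was the 1 probe called in both genotypes with a larger rise in null. It read 10.5, 9.55, 10.7 and 11.2 in wild type with water and 14.9, 14.8, 15.1 and 14.9 with PFOA, and 11.1, 10.5, 11 and 11 in null with water and 17.8, 17.8, 17.6 and 17.6 with PFOA. The controls of the 2 genotypes overlapped and the treated groups were far apart, with a 21.7-fold rise in wild type and a 110-fold rise in null. The difference was 2.35 ± 0.38 (limma adjusted p = 0.00856). At 1 mg/kg, wild-type arrays read 13.3 to 15.9 and null arrays 15.4 to 16; the highest of the former is the array labelled replicate 3, which reads like a null array at Cox6b2 (9.06).

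Cyp2b10, the best known CAR target, was called in null alone, without a called difference. It read 10.3, 12.9, 13.1 and 12.8 in wild type with water and 15.6, 13.5, 14.3 and 14.4 with PFOA, and 11.9, 12.2, 12.2 and 11.9 in null with water and 17.3, 16.1, 16 and 17.1 with PFOA. No groups of 1 genotype overlapped, and the low wild-type control array widened the spread. The change was 2.13 ± 0.57 in wild type (limma adjusted p = 0.057) and 4.60 ± 0.57 in null (limma adjusted p = 0.00251), with a difference of 2.46 ± 0.80 (limma adjusted p = 0.315). Without that control array, wild-type water replicate 1, the difference was 3.13 and was called (limma adjusted p = 0.024). In the other 27 of 28 alternative settings it was not called, and the difference went as low as 0.79.

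**Figure D3:**
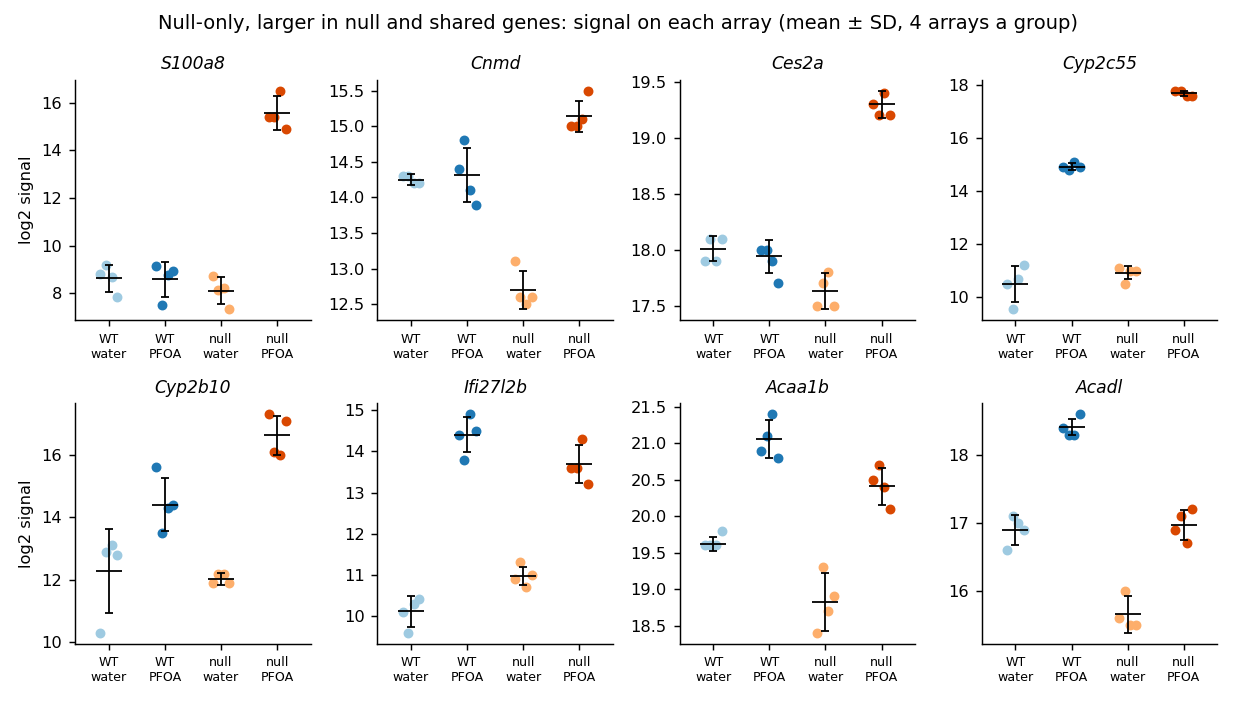
The log2 signal on each of the 16 arrays for 3 null-only genes (S100a8, Cnmd, Ces2a), Cyp2c55, which rose more in null, Cyp2b10, called in null without a called difference, and 3 shared genes (Ifi27l2b, Acaa1b, Acadl). Points are arrays and the bar and whiskers are the mean and SD of 4 arrays; the treated null arrays are the highest group for the first 5 genes.

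In all, null mice had 52 called probes (0.18%), 48 higher (0.166%) and 4 lower (0.0138%), against 961 (3.33%) in wild type, 614 higher (2.13%) and 347 lower (1.2%). Leaving out wild-type water replicate 2, 3 or 4 lowered the wild-type count to 618, 625 or 624. Of the 52 in null mice, 24 were called in null alone with no called difference. They include Cyp2c37 (2.01 ± 0.32 in null and 0.65 ± 0.32 in wild type), Ugt2b34 (0.93 ± 0.17 and 0.39 ± 0.17) and Gstm2 (1.35 ± 0.20 and 0.07 ± 0.20), genes of drug metabolism. Mcm6, a subunit of the replication helicase, was at 2.54 ± 0.41 and 0.70 ± 0.41, with the water means of both genotypes below those of silent genes. Col1a1, a chain of type I collagen, read 10.8 to 11.7 in null with water and 13.7 to 15.3 with PFOA, while the mean of the other 9 stellate cell markers was 12.9 to 13.2 and 12.7 there. These 5 genes were named after their values were seen.

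Most wild-type responses could not be placed. Of the 614 probes that rose in wild type, 478 had no call in null and none in the difference, and of the 347 that fell, 332. The null change had the same direction for 432 (70.4%) of the 614, with a median of 0.19 beside 1.30 in wild type, and for 288 (83%) of the 347, with a median of -0.29 beside -1.08. Gadd45b, a stress-induced growth regulator, is an example: 3.80 ± 0.39 in wild type and 1.37 ± 0.39 in null, with a difference of -2.43 ± 0.55 (limma adjusted p = 0.0757). Ccnd1, cyclin D1, changed by nearly the same amount in both, 1.30 ± 0.29 and 1.09 ± 0.29, with a call in wild type alone. Cyp4a14, a textbook PPARα target, read 20.3 to 20.5 on the treated wild-type arrays, but its water arrays ran from 11.8 to 15.5 in wild type and from 6.63 to 14.1 in null, and its difference of -3.08 ± 1.94 was not called (limma adjusted p = 0.657). Cyp4a10 and Cyp3a11 have no probe of their own here.

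Gene lists were read with 1 probe for each of 12702 genes, over which the median change was 0.00 in wild type and -0.05 in null and the median difference -0.06; 77 of the genes (0.606%) had a called difference that was lower in null and 15 (0.118%) one that was higher. Of all these genes, 2.97% rose in wild type and 0.26% in null. The list for omega-oxidation and the handling of fatty acids has 31 measured genes, of which 20 rose and 1 fell in wild type and 4 rose in null; 13 differences were lower and 1 higher in null. The list's median change was 1.67 in wild type and 0.15 in null. Of 36 genes of peroxisomal beta-oxidation and biogenesis, 17 rose in wild type and 3 in null, and 7 differences were lower in null, with medians of 0.69 and 0.03. Of 18 genes of mitochondrial beta-oxidation and ketogenesis, 11 rose in wild type and 1 in null, and 2 differences were lower, with medians of 0.85 and 0.16.

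The list of CAR and PXR targets ran the other way. Of its 30 measured genes, 3 rose and 2 fell in wild type and 5 rose in null, and 4 differences were higher in null: Cyp2c55 and Ces2a, which rose there, and Slco1a4 and Cyp2c70, which fell in wild type. The median was 0.27 in wild type and 0.50 in null. The receptor genes themselves were not called: Nr1i3, which encodes CAR, changed by 0.25 ± 0.18 and -0.23 ± 0.18, and Nr1i2, which encodes PXR, by 0.31 ± 0.23 and 0.45 ± 0.23.

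Of 37 measured complement and coagulation genes, 21 fell in wild type, where 1.5% of the 12702 genes did, and none was called in null, where no gene was called lower. The medians were -0.69 in wild type and -0.16 in null, and 1 difference, that of C8b, was called. F11, coagulation factor XI, read 15.7 to 16.3 and 14.3 to 14.9 in wild type and 15.9 to 16.6 and 15.7 to 16.4 in null, with a difference of 1.30 ± 0.30 (limma adjusted p = 0.0833). Of 24 genes of bile acid synthesis and transport, 1 rose and 6 fell in wild type and none was called in null, with 1 called difference, Slco1a4; Cyp7a1, which makes the first step, was among those not called. Of 30 genes for amino acid breakdown and urea synthesis, 6 fell in wild type and none in null, with medians of -0.50 and -0.38 and no called difference; Asl, argininosuccinate lyase, changed by -1.14 ± 0.15 and -0.14 ± 0.15. Of 13 male-biased liver genes, 5 fell in wild type and none in null, and 2 differences were called, Hsd3b5 and C8b.

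Cell cycle genes had similar medians in both genotypes, 0.65 in wild type and 0.59 in null over 25 genes, with 5 rises called in wild type, 2 in null and no called difference. Of 29 genes of the NRF2 and glutathione list, 5 rose in wild type and 2 in null, with 1 called difference, Gstt2, a glutathione transferase (1.45 ± 0.16 and 0.18 ± 0.16). The lists for AhR targets, cholesterol synthesis, fatty acid and triglyceride synthesis, acute phase, glucose and glycogen metabolism, proteasome, oxidative phosphorylation and chaperones held no called difference. The lists of lipoprotein genes and of female-biased genes held 1 each, Pltp and Acot3.

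**Figure D4:**
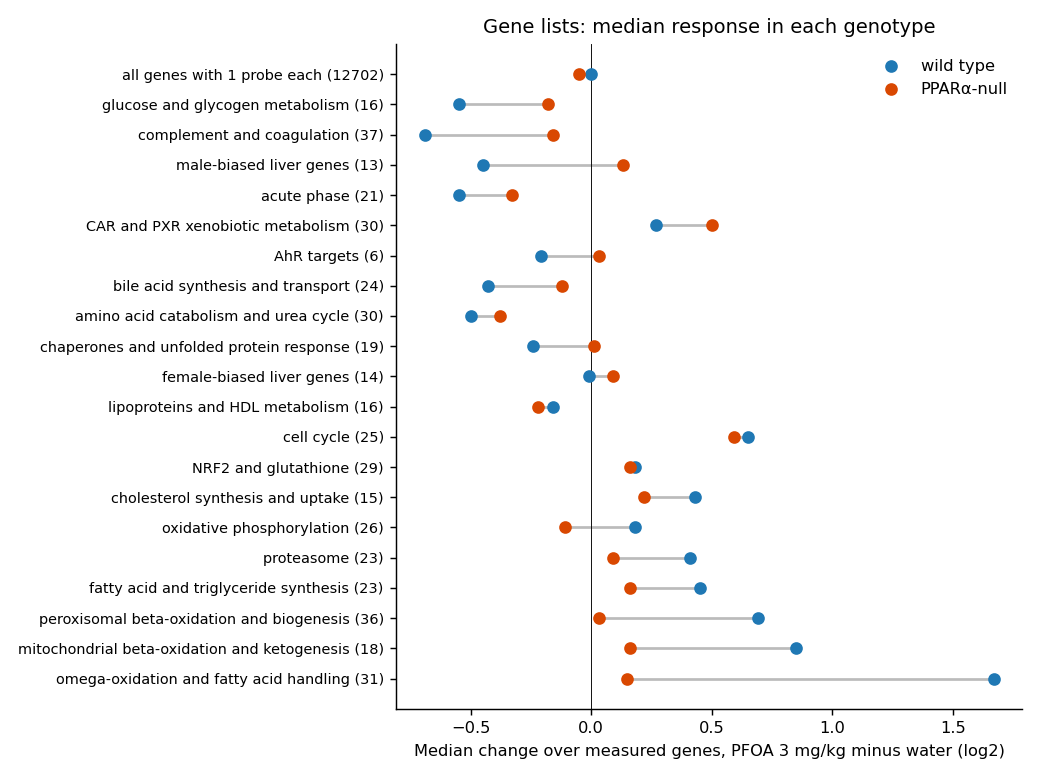
The median log2 change from water to PFOA 3 mg/kg over the measured genes of each list (number in brackets) in wild-type (blue) and PPARα-null mice (orange), ordered by the median genotype difference, with all 12702 genes on top. The fatty acid lists have the widest gaps, with the blue point to the right, and complement and coagulation has its blue point to the left.

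Among markers of other cell types, 2 of 12 Kupffer cell markers fell in wild type, and their mean went from 12.9 to 13.1 with water to 12.4 to 12.8 with PFOA, against 13.2 to 13.4 and 12.8 to 13.4 in null. In whole liver, fewer cells of a type and less RNA per cell cannot be told apart. Of the 13 liver endothelial, 10 stellate, 4 adipocyte and 6 hepatocyte markers, 1 each was called in wild type, with no called difference. No marker of lymphocytes (9 measured) or red blood cells (3) was called in either genotype.

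The pirinixic acid arrays gave a reading of the sorted genes on other animals. Of the 118 receptor-dependent probes that rose, 116 had a value there; 58 were called higher with pirinixic acid in wild type, where 1.78% of 28199 probes were called and 1.04% called higher, and 115 had the same sign. The genotype difference with pirinixic acid was called for 37 probes (0.131%), 28 lower (0.0993%) and 9 higher (0.0319%) in null, among them 16 of the 116, and 114 of the 116 had the same sign. Of the 14 falls with a value, 5 were called in wild type, where 0.734% of probes fell, and 2 in the difference, and all 14 had the same sign. No probe was called in null mice with pirinixic acid by limma; 963 (3.42%) had an unadjusted p under 0.05, where no change at any probe gives about 5%. Leaving out wild-type pirinixic acid replicate 1 raised the count of called differences from 37 to 156, and leaving out wild-type methylcellulose replicate 1 or null methylcellulose replicate 3 lowered it to 21 or 24.

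By gene, Cd36 had a pirinixic acid genotype difference of -4.54 ± 0.35 (limma adjusted p = 5.67e-05), Ehhadh of -5.06 ± 0.39 (limma adjusted p = 5.67e-05) and Mogat1 of -5.21 ± 0.71 (limma adjusted p = 0.0106). Hes7 was at -4.82 ± 0.68, Pltp at -3.42 ± 0.40 and Cyp4a31 at -6.46 ± 0.96, all called. Of the falls, Ifitm3 was at 2.73 ± 0.31 and C8b at 2.55 ± 0.36, also called, and Hsd3b5 at 4.87 ± 0.96 (limma adjusted p = 0.0723). Acot3, Pex11a, Fgf21 and Slco1a4 had smaller values with pirinixic acid, at -1.92 ± 1.28, -0.91 ± 0.72, -1.0 ± 0.95 and 1.01 ± 1.21, none called. Wild-type pirinixic acid replicate 3 stood highest of its group at the first 3 of these. It read 15.6 against 10.9 to 13.5 at Acot3, 18.8 against 15.9 to 16.5 at Pex11a and 14.8 against 11.6 to 12.7 at Fgf21. Their means and errors with pirinixic acid thus rest in part on 1 array.

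**Figure D5:**
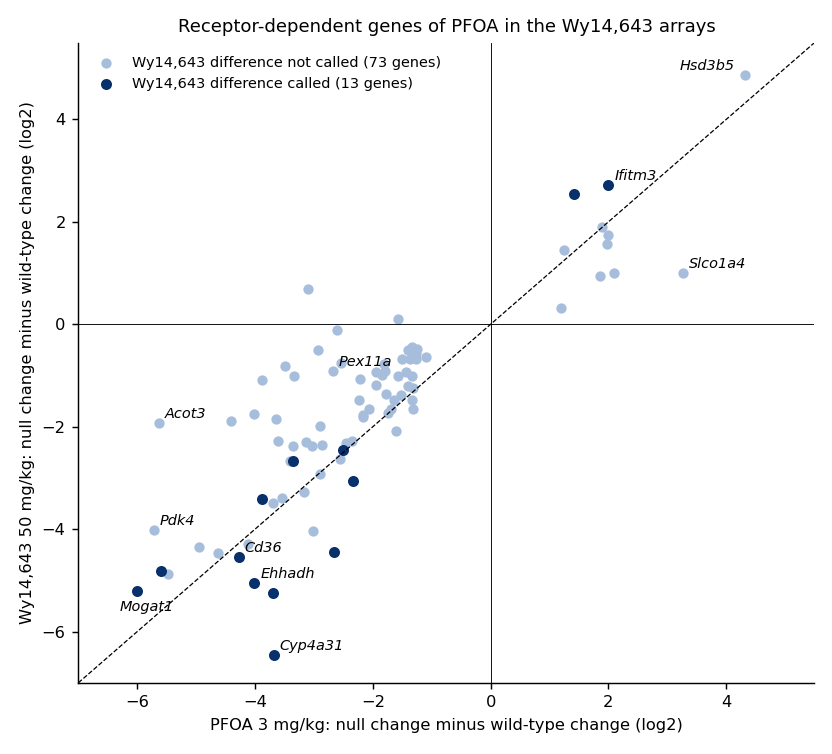
Each point is 1 of 86 receptor-dependent genes with a value in both sets of arrays: the PFOA genotype difference on the x axis, which chose the genes, against the pirinixic acid genotype difference on the y axis, both null minus wild type in log2, with a dashed line of equality. Of the 86, 84 have the same sign in both, and the 13 dark points were called with pirinixic acid.

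The shared genes were read there too. Of the 17 shared probes, 9 were called higher with pirinixic acid in wild type, with median changes of 1.05 in wild type and 0.18 in null. None of the 17 was called in null, where no probe on the arrays was. Acaa1b changed by 1.24 ± 0.23 with pirinixic acid in wild type and by 0.15 in null, and Acadl by 1.61 ± 0.27 and 0.08. The genes that rose more in null with PFOA were called in neither genotype with pirinixic acid: Cyp2c55 changed by 0.66 ± 0.52 in wild type and 0.56 in null, Ces2a by -1.02 ± 0.29 and -0.27, and S100a8 by 0.12 ± 0.86 and 1.57. When the 2 genotype differences were subtracted in a fit of 31 arrays, 0 of 26085 probes was called by limma (1 with a trended, robust variance). At an unadjusted p under 0.05 there were 2875. The count called was 3 without wild-type pirinixic acid replicate 3 and 1 without its replicate 1. In the fit of 31 arrays S100a8 was at 6.04 ± 1.36 (limma adjusted p = 0.282) and Cyp2c55 at 2.44 ± 0.81 (limma adjusted p = 0.387). None of the sorted genes can therefore be called particular to PFOA from these arrays.

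The counts rest on 4 arrays a group. Leaving out 1 array at a time gave 104 to 154 receptor-dependent probes. Shared probes numbered 7 without null PFOA replicate 1 or 2, 8 without null water replicate 1 or 3, 9 without wild-type water replicate 1 or 4 or wild-type PFOA replicate 2, and 10 without null water replicate 4, wild-type water replicate 3 or wild-type PFOA replicate 4. Null-only probes numbered 4 without null PFOA replicate 1 or null water replicate 1, 3 or 4, and 11 without null PFOA replicate 3. Probes called in null mice numbered 22 without null PFOA replicate 1, 23 without null water replicate 1 or 3, 24 without null water replicate 4 and 25 without null PFOA replicate 2; they numbered 28 to 33 without wild-type PFOA replicate 2 or 4, wild-type water replicate 4, null water replicate 2 or null PFOA replicate 4. Within the smaller and the larger array set alone, with 9 and 7 arrays, 3 and 0 of the 133 receptor-dependent probes were called, and all 133 kept the sign of the difference in each. The 133 were chosen on these same arrays, so kept signs are no independent check.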

How the data were processed

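The deposited values were signals on Applied Biosystems Mouse Genome Survey arrays with equal medians, read here as log2 from their range; the authors' background correction and normalisation are, in the sources used here, not given, and no further normalisation was applied. Per the labels' protocols, RNA had an integrity number of at least 8.5 and the label was digoxigenin. Of 33012 probes, 14411 name 1 gene, 247 several and 18354 none in the platform annotation; 14402 were matched by Entrez number. Tests cover the 28893 probes measured on each of the 16 arrays; 4119 lack at least 1 value (1.03% of values) and were left out. limma 3.58.1 in R 4.3.3 was fitted with 1 mean per group, 12 residual and 2.43 prior degrees of freedom; p-values were adjusted by Benjamini-Hochberg over all probes tested. Errors are standard errors of the fit, or SD where named; the number of arrays limits the precision. The fit uses 16 arrays and not all 39, because 1 array of another group reads against its label.

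Named genes were the 10 largest per class and direction whose arrays did not overlap, up to 4 per gene list with the smallest adjusted p of the difference, and known targets of PPARα and CAR, each by its brightest probe; names at the bottom of a ranking were left out. There were 20 lists of genes by function and 10 of cell type markers. The members, lists and rules were chosen with earlier results of these data known. The silent-gene floor for folds was set after the data were seen. Alternatives covered the arrays fitted, blocks, the silent-gene mean, cyclic loess, dim probes, missing values, the variance model, the threshold and each array left out. The fit was tested on simulated data. Promoters are from RefSeq.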

Additional observations from a re-analysis of the deposited data

Results flagged for a closer look

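The response to PFOA differed between the genotypes at 145 probes, by limma's test of the difference itself; the report describes them by class. Among 284 groups of 4 arrays checked for the genes named, all from the PFOA comparison, 14 held an array that stood apart from the others. Chance alone gives about 1 in 20. The pirinixic acid arrays were not checked in this way.

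For genes with a called genotype difference these were as follows. Lrtm1 read 10.6 on wild-type PFOA replicate 1 against 9.02 to 9.19 on the others. Plin2 read 17.8 on wild-type PFOA replicate 4 against 17.2. Vnn1 read 10.8 on wild-type water replicate 4 against 10.9. In null mice with water, Ifitm3 read 19.5 on replicate 1 against 18.9 to 19, Cyp4f14 18.3 on replicate 1 against 18.5, Mgll 16.9 on replicate 2 against 16.1 to 16.2 and Cyp2c55 10.5 on replicate 2 against 11 to 11.1. In null mice with PFOA, Cnmd read 15.5 on replicate 4 against 15 to 15.1.

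For the shared and unplaced genes, Acaa1b read 19.8 on wild-type water replicate 4 against 19.6, and Csrp3 14.6 on wild-type PFOA replicate 1 against 14.9 to 15. Acadl read 16 on null water replicate 2 against 15.5 to 15.6, and Gstm4 14.3 on null water replicate 4 against 14.4. Cyp2b10 read 10.3 on wild-type water replicate 1 against 12.8 to 13.1, and Asl 17.6 on null PFOA replicate 3 against 18.2. Of these genes, Lrtm1 and Mgll lost their called difference on leaving out most single arrays.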

How the results depend on the processing

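Counts are given in the order called differences, receptor-dependent, shared, null-only, called in wild type and called in null; the values of the report are 145, 133, 17, 7, 961 and 52, with 37 called pirinixic acid differences. The genotype difference kept its sign at all 133 receptor-dependent probes that could be tested under every alternative run, and no called difference of a gene named in the report turned its sign; those of Acaa1b, Cdc20, Ccnd1 and Nr1i2, not called, did. Of the 133, 129 were called again with a trended, robust variance and 130 with cyclic loess. Since the 133 were chosen on the same arrays, kept signs and calls are no independent check.

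Probes with dim signal left out gave 328, 294, 53, 14, 1743 and 113 (pirinixic acid: 194), and a trended, robust variance 322, 289, 59, 17, 1521 and 120 (pirinixic acid: 177, with 1 probe called for PFOA minus pirinixic acid). An adjusted p under 0.01 gave 81, 75, 6, 4, 449 and 19 (pirinixic acid: 8). With the silent-gene mean as a covariate, 92 differences, 85 receptor-dependent and 4 null-only probes were called. All 39 arrays in 1 fit gave 34 shared probes, 1473 called in wild type, 313 pirinixic acid differences and 1 for PFOA minus pirinixic acid, with 93 receptor-dependent probes. Without the array of wild type at 1 mg/kg that reads against its label, the fit of 38 gave 36 shared and 11 null-only probes, 1568 called in wild type, 84 in null and 435 pirinixic acid differences. Probes with at least 3 values per group gave 10 shared and 32 called in null. The array set as a block gave 24 pirinixic acid differences. The cause of these moves was not tested.

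Within the smaller array set (9 arrays) the counts were 3, 3, 2, 0, 116 and 4; within the larger (7 arrays, 3 residual degrees of freedom) they were 0, 0, 0, 0, 0 and 0, with 2500 differences at an unadjusted p under 0.05.

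Leaving out 1 array at a time gave 113 to 170, 104 to 154, 7 to 17, 4 to 11, 618 to 1179 and 22 to 50, with 21 to 156 pirinixic acid differences and 0 to 3 for PFOA minus pirinixic acid. Of 44 called differences of genes named in the Results, 11 lost their call in at least 1 of these 16 fits: Hsd3b5, C8b, Gna14, Lrtm1 and G0s2 in 14 each, Sdc4 and Mgll in 13, Ech1 in 12, Acaa1a in 3 and Gpld1 and Gstt2 in 1. The silent-gene covariate ended 13 of the 44 calls (these 11 without C8b, and Pdk4, Fgf21 and Cidec), the fit of 38 arrays 5 (Slco1a4, Cyp2c70, Gna14, Sdc4 and G0s2) and cyclic loess 0. The fit of 39 arrays ended 18: Cyp2c55, Cyp4a31, Aldh3a2, Ech1, Plin2, Crat, Decr2, Fgf21, Cox6b2, Slco1a4, Cyp2c70, C8b, Gna14, Lrtm1, Sdc4, G0s2, Mgll and Gstt2.

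The share of rises among wild-type calls was 63.9%. It was 75.9% within the smaller set.

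The labels do not tie arrays of equal replicate number to each other. Over 24 pairs of equal number the correlation of deviations ran from -0.17 to 0.33, with a median of 0.0956 against -0.025 for 72 pairs of unequal number; 12 were over 0.1, so not every pair was, and 8 of 16 arrays correlated best with their own number, a hint from the data of some pairing. With the replicate number as a block the counts were 123, 115, 13, 5, 889 and 34 (pirinixic acid: 16), and Hsd3b5, Lrtm1, Gna14, C8b, Sdc4, Ech1 and Acaa1a had no called difference.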

Other observations

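Receptor-dependent genes outside the lipid lists, named after their values were seen, included regulators of transcription and growth. Etv5 and Etv6, factors of the ETS family, changed by 3.08 ± 0.31 and 3.58 ± 0.34 in wild type and by -0.92 ± 0.31 and 0.18 ± 0.34 in null. The Etv5 means of wild type with water and of both null groups lay below those of silent genes, so the sizes of its changes are uncertain. Cbfa2t3, a corepressor, changed by 3.62 ± 0.25 and -0.26 ± 0.25. Gadd45g, a stress-induced growth regulator, rose by 1.74 ± 0.34 in wild type and read -1.37 ± 0.34 in null without a call there. Its genotype difference was -3.10 ± 0.48 with PFOA and 0.69 ± 1.97 with pirinixic acid, where the error leaves the sign undetermined. It was 1 of 2 receptor-dependent genes whose measured sign differed between the compounds. The contrast of the compounds was not called for it (limma adjusted p = 0.509).

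Membrane and secreted proteins formed another part of the class. Amn, which anchors the intestinal vitamin B12 receptor, changed by 5.29 ± 0.35 and 1.60 ± 0.35. The Amn means of wild type with water and of both null groups lay below those of silent genes, so the sizes of its changes are uncertain. Scn10a, a sodium channel of sensory neurons, changed by 3.46 ± 0.32 and 0.11 ± 0.32, and Chrna2, a nicotinic receptor subunit, by 4.05 ± 0.34 and 0.70 ± 0.34. Both null means of Chrna2 lay below those of silent genes. Ctse, an aspartic protease, changed by 3.12 ± 0.20 and 0.79 ± 0.20, and Car2, a carbonic anhydrase, by 2.45 ± 0.21 and -0.05 ± 0.21. Abcg2, a drug efflux pump, changed by 1.69 ± 0.18 and 0.26 ± 0.18.

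Of the 4 probes called in the difference alone, 1 names a gene. Anxa5, a phospholipid-binding protein, read 12 to 12.7 and 12.7 to 13.3 in wild type and 12.7 to 13.1 and 11.9 to 12.6 in null, a difference of -1.46 ± 0.30 (limma adjusted p = 0.046) that lost its call in 14 of 16 fits with 1 array left out. It was also not called with the silent-gene covariate. Genes named only under these other observations are not among the 44 counted above.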
